A study of Rattus norvegicus with 44 samples.

Results

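Platelet-derived growth factors (PDGFs) and vascular endothelial growth factors (VEGFs) are related secreted dimers, and their receptors are tyrosine kinases of the cell surface. The genes described here were 5 ligands (Pdgfa, Pdgfb, Vegfa, Vegfd and Pgf) and 5 receptors (Pdgfra, Pdgfrb, Kdr, Flt1 and Flt4) of this family, in cultured neonatal rat ovaries. A gene was measured through the probe sets that carried its symbol and no other in the array annotation, and 9 of the 10 genes had 1 such probe set each, among 14324 genes measured in that way. No probe set was listed under Kdr, the main signalling receptor of VEGF-A, which was not analysed here.

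Whole ovaries of 4-day-old female Sprague-Dawley rats were kept in culture for 2 days, either untreated or exposed to a single growth factor (50 ng/ml), and their RNA was hybridized to Affymetrix Rat Gene arrays. In the larger set of 38 arrays, 14 untreated controls stood beside 3 arrays for each of PDGFab, FGF2, FGF7, KITLG, LIF, GDNF, BMP4 and AMH. PDGFab is the heterodimer of the PDGF A and B chains. For GDNF the labels give 3 samples where the published description gives fewer, and all 3 were used as labelled. A separate set held 3 arrays of ovaries treated with CTGF (connective tissue growth factor) and 3 untreated controls of their own. Each sample pooled 2 or 3 ovaries of a well, from different pups of a litter, and a culture day combined controls with 1 to 3 of the growth factors, so that samples could share a day that the labels do not name. AMH, BMP4, FGF7 and CTGF were human proteins, KITLG was a mouse protein, and FGF2, GDNF, LIF and PDGFab were rat proteins. The array held 27342 probe sets. All values are log2 expression levels in which a difference of 1 stands for a change by a factor of 2. Levels of different probe sets were not read as relative amounts of RNA, because probes differ in response.

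The PDGF A and B chains bind the receptors PDGFRα and PDGFRβ, which are known from mesenchymal cells, with PDGFRβ a standard marker of the pericytes that surround small vessels. VEGF-A and placental growth factor (PlGF, from Pgf) bind VEGFR1 (Flt1), VEGF-A also binds VEGFR2 (Kdr), and VEGF-D acts on VEGFR3 (Flt4), best known from lymphatic vessels. Vegfa transcription is known to rise when oxygen is scarce. In the ovary, vessels grow with the follicles, and the first primordial follicles of the rat leave their resting pool in the days after birth.

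Pgf, which gave the largest fall among the members, and Vegfa, whose level followed that of low-oxygen response genes from array to array, are shown with the 250 bases before their starts of transcription. The windows are from RefSeq on the rat build GRCr8, at chr6:110557748-110557997 on the minus strand for Pgf and chr9:22452604-22452853 on the plus strand for Vegfa, and both lie upstream of the annotated gene. Capitals mark GC boxes, searched as GGGCGG on both strands.
Pgf: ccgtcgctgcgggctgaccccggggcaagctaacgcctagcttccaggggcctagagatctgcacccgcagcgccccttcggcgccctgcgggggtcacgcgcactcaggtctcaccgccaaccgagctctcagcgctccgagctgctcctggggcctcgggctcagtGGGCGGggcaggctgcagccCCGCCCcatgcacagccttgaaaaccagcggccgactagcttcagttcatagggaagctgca
Vegfa: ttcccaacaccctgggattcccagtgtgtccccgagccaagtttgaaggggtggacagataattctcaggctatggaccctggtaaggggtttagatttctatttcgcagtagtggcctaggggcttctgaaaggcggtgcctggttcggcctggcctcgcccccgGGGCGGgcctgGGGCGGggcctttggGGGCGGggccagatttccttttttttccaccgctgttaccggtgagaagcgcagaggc
The Vegfa window held 3 GC boxes, which began 84, 73 and 58 bases before the start, and the Pgf window held 2, which began 82 and 62 bases before it. Of 33469 windows of that length in the table, 30.5% held at least 1 GC box. The table gave 9 windows for 8 of the measured members (none for Pdgfrb), and 6 of the 9 held a GC box. The letters ACGTG, the core of elements bound by hypoxia-inducible factors, were in 16.6% of all windows and in 0 of these 9, and TATAAA was in 12.9% of all and in 2 of the 9, those of Flt1 and Vegfd. The windows of Flt1, Vegfd and Pdgfra and the second of Vegfa do not lie outside the annotated gene. A match of letters is a description of the window and not a binding site. Bases farther upstream were not searched, so the lack of a match says nothing of elements outside the window.

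Among the 14 controls each member kept to its own range of levels. Of the PDGF receptors, Pdgfra lay between 9.54 and 10.09 (median 9.84) and Pdgfrb between 8.80 and 9.73 (median 9.45). Of their ligands, Pdgfa lay between 6.95 and 8.06 (median 7.27) and Pdgfb between 6.14 and 7.82 (median 6.53). Of the VEGF ligands, Pgf lay between 7.20 and 8.62 (median 8.04), Vegfa between 7.43 and 8.64 (median 7.82) and Vegfd between 4.64 and 5.10 (median 4.92). The receptor Flt1 lay between 5.07 and 6.62 (mean 5.97) and Flt4 between 6.07 and 7.16 (mean 6.53). Vegfd and Pdgfra varied least among the controls (SD 0.14 and 0.16, n = 14), and Pgf, Pdgfb and Vegfa varied most (SD 0.43, 0.40 and 0.40). In all controls Vegfd lay below the array medians of the larger set, which were 5.93 to 6.01. The files hold no detection calls, so it is unknown which of these probe sets stood above background.

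Markers of the cell types of the ovary were measured too, and without detection calls they do not show which of these cells were present. The 11 endothelial markers had control means from 4.14 ± 0.07 (Tal1) to 7.53 ± 0.25 (Emcn, endomucin; SD, n = 14), with the endothelial cadherin Cdh5 at 6.87 ± 0.52. Control 1 stood apart from the other controls together with sample 1 of FGF2, of KITLG and of LIF, which deviated from their group means as it did (r = 0.740, 0.615 and 0.694 over all probe sets). Their summed level of 5 oocyte markers was 11.59, 11.09, 12.03 and 12.03, against a control median of 12.63. That of the 11 endothelial markers was low too, at 9.32, 9.43, 9.08 and 9.43 (control median 9.91). The 6 macrophage markers were high, at 10.33, 10.56, 10.64 and 10.67 (median 9.59). So were the 4 surface epithelium markers, at 12.53, 12.02, 12.41 and 12.18 (median 11.62). Without these 4 arrays, 0 members were called with FGF2 and 1, Vegfd, with PDGFab. Whole ovaries hold many cell types, and fewer cells of a type cannot be told apart from less RNA per cell.

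**Figure D1:**
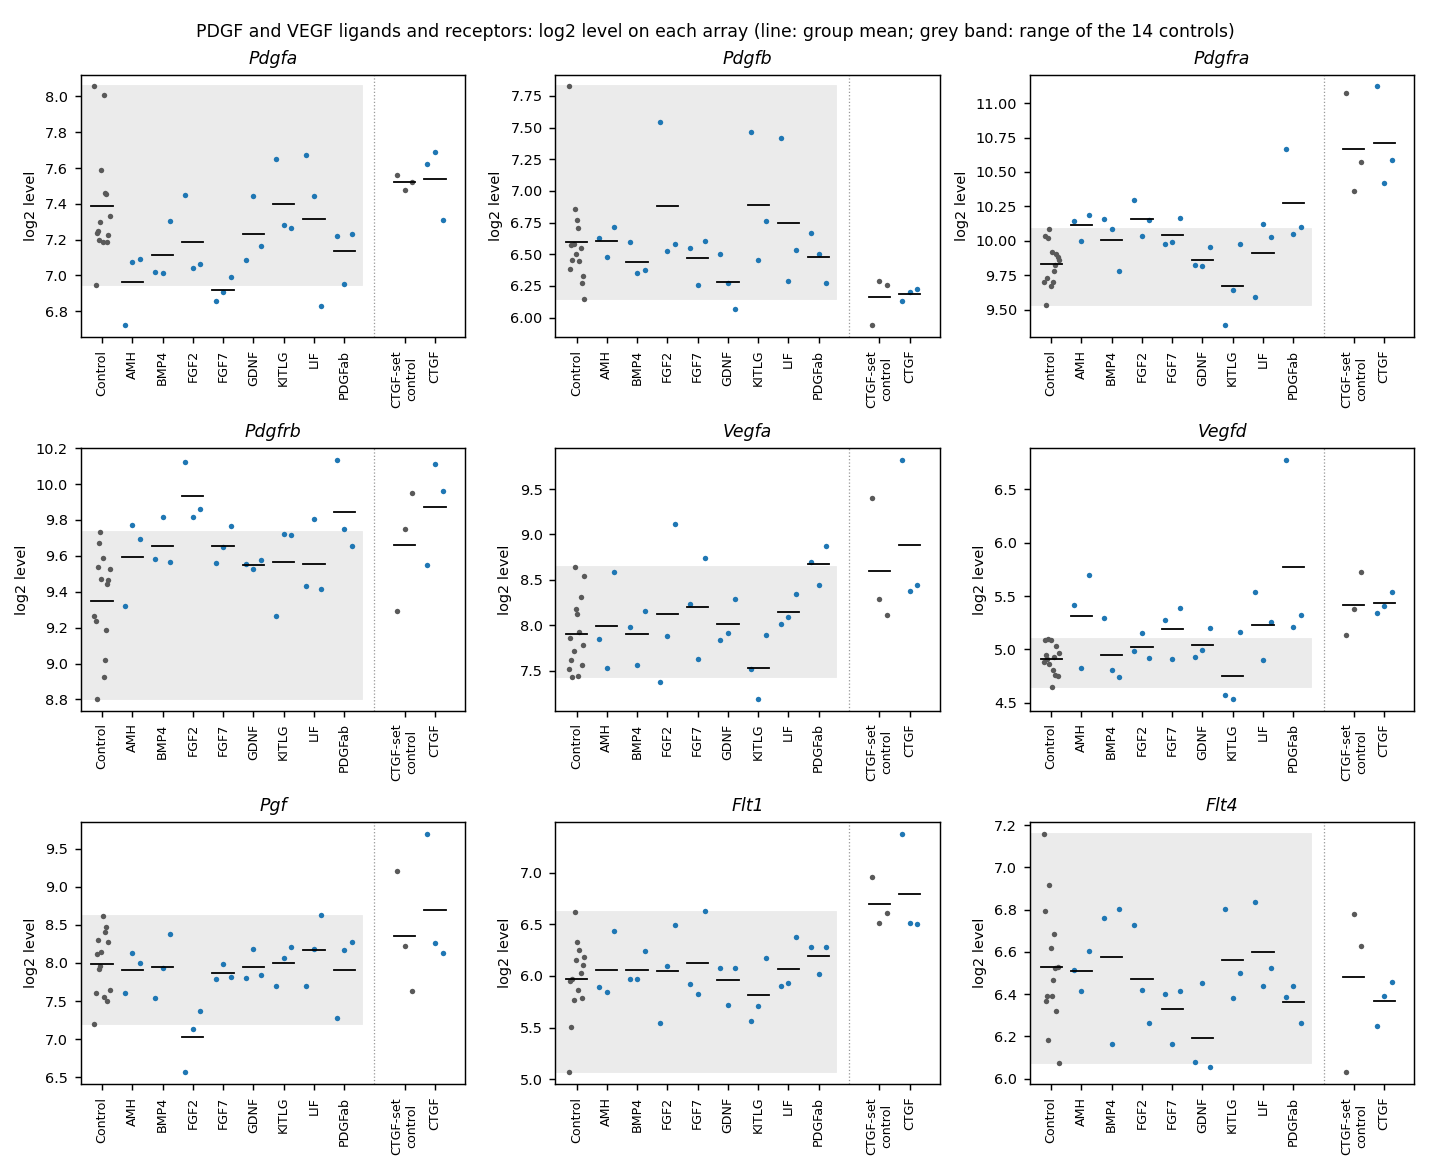
Log2 level (vertical axis) of each of the 9 measured members on every array, by group (horizontal axis), with a line at each group mean and a grey band over the range of the 14 controls. The dotted line parts the separately processed CTGF set. All 3 FGF2 arrays lie above the band for Pdgfrb and all 3 PDGFab arrays lie above it for Vegfd.

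Of the 72 differences that 9 members and 8 growth factors give, limma called 3 at an adjusted p under 0.05 (Benjamini-Hochberg, over all 27342 probe sets). FGF2 lowered Pgf and raised Pdgfrb, and PDGFab raised Vegfd. The members called were 2 of 9 with FGF2, where 0.94% of all probe sets were called, and 1 of 9 with PDGFab, where 0.234% were. They were 0 of 9 with AMH, BMP4, FGF7, GDNF, KITLG and LIF, where 0%, 0.274%, 0.0805%, 1.89%, 0.0439% and 0.267% of all probe sets passed and where 3, 1, 2, 1, 0 and 0 members had an unadjusted p under 0.05. By the t-test of the study's methods no member passed the adjustment with any of the 8 growth factors. The study itself called a gene by an unadjusted p up to 0.05 together with a change of the linear mean to 1.2 times or more, or 0.83 times or less, and by 10 units or more. With limma's p in these criteria, 14 of the 72 differences counted. They were 4 members with PDGFab (5.33% of all probe sets), 3 with FGF2 (6.79%), 3 with AMH (2.15%), 2 with FGF7 (4.16%), 1 with BMP4 (4.48%), 1 with GDNF (5.99%), and 0 with KITLG (4.44%) and LIF (3.82%). Because the 8 comparisons use the same 14 controls, they are not independent of each other.

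**Figure D2:**
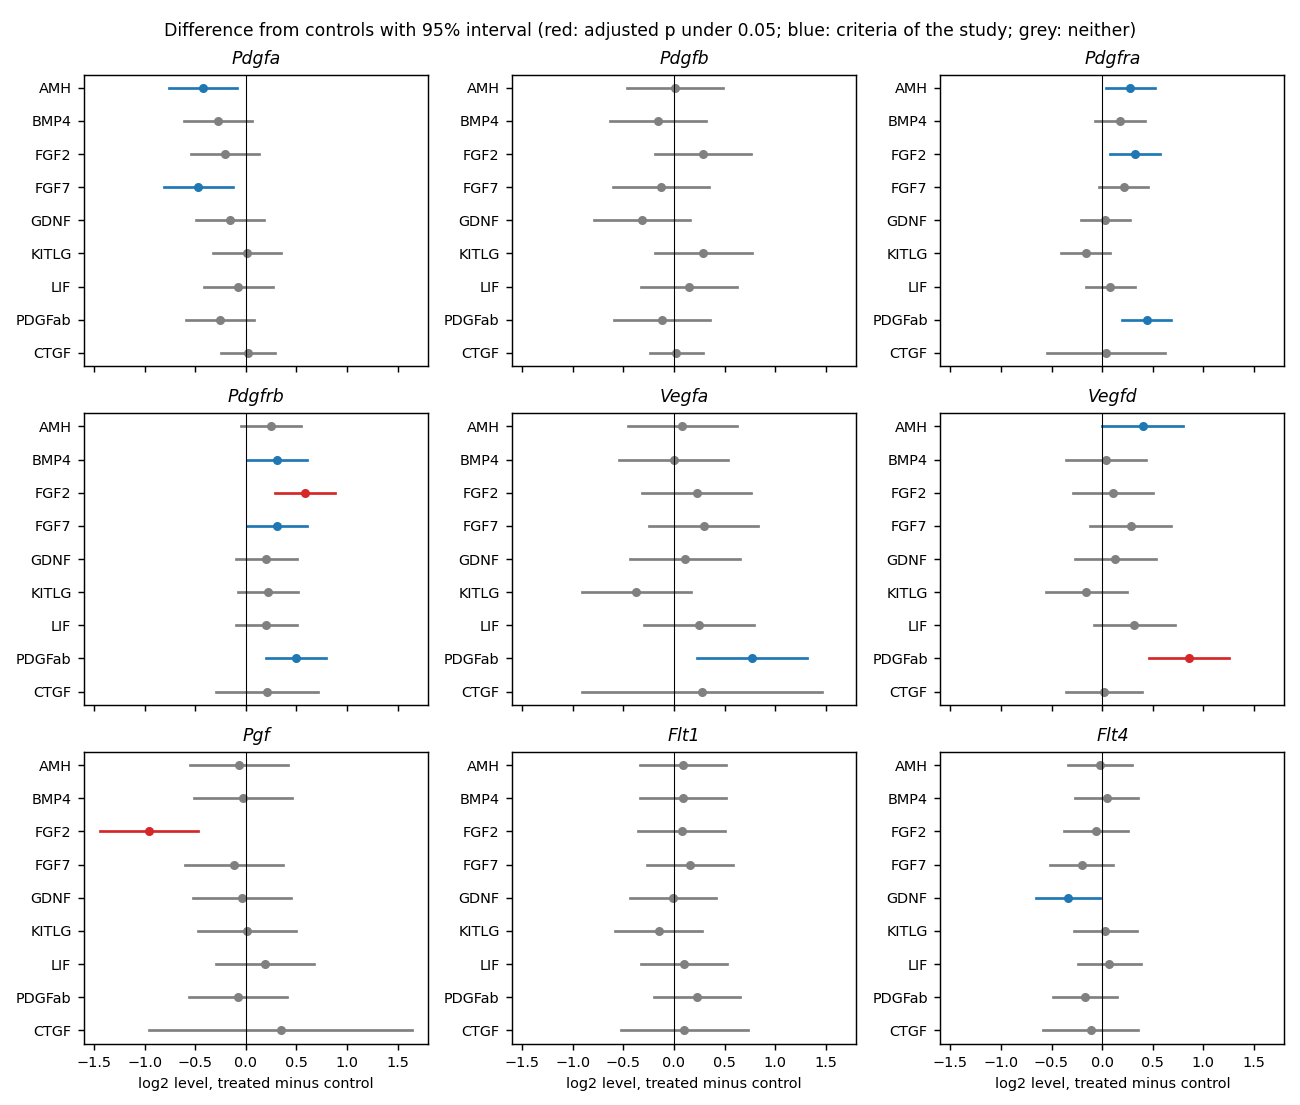
Difference in log2 level from the controls (horizontal axis; point, with its 95% interval from limma as a bar) for each member and each growth factor, CTGF against its own 3 controls. The red intervals are those past the adjusted threshold, of Pdgfrb and Pgf with FGF2 and Vegfd with PDGFab.

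Among the PDGF ligands, Pdgfa tended to the low end of the controls in several groups without passing the adjustment. It was at 6.86, 6.91 and 6.99 in the FGF7 samples and at 6.72, 7.07 and 7.09 in the AMH samples. Of these, 2 FGF7 samples and 1 AMH sample lay below the lowest control, which was control 2 (6.95). AMH sample 1, at 6.72, deviated from its group mean as control 2 did (r = 0.779 over all probe sets). The log2 differences were -0.47 (SE 0.17, adjusted p = 0.377) with FGF7 and -0.43 (SE 0.17, adjusted p = 0.946) with AMH, both within the study's criteria. Adding the A and B chains as protein went with no call on either gene: the PDGFab samples were at 7.22, 6.95 and 7.23 for Pdgfa and at 6.67, 6.50 and 6.27 for Pdgfb. The highest Pdgfb level of the controls, 7.82, was that of control 1, and sample 1 of FGF2, KITLG and LIF followed with 7.54, 7.46 and 7.41. The other 13 controls lay between 6.14 and 6.86. No group mean of Pdgfb differed from the controls by an unadjusted p under 0.05.

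Pdgfrb, the receptor gene of pericytes and other mesenchymal cells, rose with FGF2. The 3 FGF2 samples were at 10.13, 9.82 and 9.86, all above the highest of the 14 controls (9.73). The log2 difference was 0.59 (SE 0.15, 95% interval 0.29 to 0.88, adjusted p = 0.0427 from limma), from a control mean of 9.35 to 9.93. Of all probe sets, 0.911% had 3 FGF2 arrays on 1 side of every control. With PDGFab the samples were at 10.13, 9.75 and 9.66, and 2 of the 3 lay above every control. That difference was 0.50 (SE 0.15) and did not pass (adjusted p = 0.138). BMP4 and FGF7 gave 0.31 each (adjusted p = 0.539 and 0.642), within the study's criteria. The order of group means ran from FGF2 (9.93) through PDGFab (9.85), FGF7 (9.66), BMP4 (9.65), AMH (9.60), KITLG (9.57), LIF (9.55) and GDNF (9.55) to the controls (9.35), so that the controls had the lowest mean of the 9 groups. Over the 9 groups, neighbours in this order differed by less than the SD within the controls (0.28), and the F-test of limma did not call Pdgfrb (adjusted p = 0.151).

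Pdgfra, the receptor of both PDGF chains, had its highest mean with PDGFab, at 10.67, 10.05 and 10.10. Of these, 2 lay above the highest control (10.09), and the difference was 0.44 (SE 0.12, adjusted p = 0.0999). The FGF2 samples were at 10.30, 10.03 and 10.15 (a difference of 0.33, SE 0.12, adjusted p = 0.221, and 0.25 with adjusted p = 0.595 without the 4 arrays) and the AMH samples at 10.15 and 10.19 in samples 1 and 3 and inside the control range in sample 2 (0.28, SE 0.12, adjusted p = 0.966). All of these met the study's criteria and none passed the adjustment. Without the 4 arrays the difference with PDGFab was 0.43 (adjusted p = 0.0548). Those with FGF2 and with AMH (0.27, adjusted p = 0.861) then no longer met the criteria. KITLG samples were at the other end of the order, at 9.39, 9.64 and 9.98 (-0.16, adjusted p = 0.783). Sample 1 of KITLG is among the 4 arrays, and without them the difference was -0.03.

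Leaving out any 1 of the FGF2 samples ended the call of Pdgfrb. Without FGF2 sample 1, 2 or 3 the difference was 0.49, 0.64 or 0.62 and did not pass (adjusted p = 0.353, 0.0582 and 0.106), and without the 4 arrays alike to control 1 it was 0.48 (adjusted p = 0.33). Leaving out control 11 gave 0.57 (adjusted p = 0.0511). Pericytes carry Pdgfrb, and the summed level of 10 of 11 pericyte and smooth muscle markers was 11.24, 10.71 and 10.76 in the FGF2 samples against 10.16 to 10.79 in controls. Only sample 1 lay outside the control range, and their median difference was 0.18 against -0.01 over all probe sets. None of the 10 was called with FGF2, and 2 met the study's criteria, which 6.79% of all probe sets met. The 8 stromal markers measured summed to 14.09, 13.73 and 13.67 in the FGF2 samples, against 13.41 to 13.93 in controls. Here too only sample 1 lay outside the control range. None of these 8 was called, and 3 met the criteria. The part of these cells in the Pdgfrb result was not tested.

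Pgf, the gene of placental growth factor, fell with FGF2. The FGF2 samples were at 6.56, 7.13 and 7.37, of which 2 lay below the lowest of the 14 controls (7.20) and the highest lay inside their range. The log2 difference was -0.96 (SE 0.24, 95% interval -1.44 to -0.47, adjusted p = 0.0406), from a control mean of 7.98 to 7.02. The other 7 growth factors left the mean between 7.86 (FGF7) and 8.17 (LIF), and none of their differences had an unadjusted p under 0.05. FGF2 stood below each of these 7 directly, by log2 differences from -0.84 (minus FGF7) to -1.15 (minus LIF), all with an unadjusted p under 0.05. None passed the adjustment over all probe sets, and the lowest adjusted p was 0.0858 (minus GDNF). Same-numbered arrays of FGF2 and of AMH, KITLG and LIF deviated together from their group means (every r over 0.1), and with the number as a block these 3 differences passed. They were -0.89 (minus AMH, adjusted p = 0.0405), -0.97 (minus KITLG, adjusted p = 0.0182) and -1.15 (minus LIF, adjusted p = 0.00181), where 0.0914%, 0.113% and 0.208% of all probe sets were called. Sample 1 of FGF2, KITLG and LIF is among the 4 arrays alike, and the block was not fitted without these arrays. The fit that left them out had no block. No direct difference of a member passed in it, as in the unblocked fit of all 38 arrays, so it cannot show whether the 3 blocked differences depend on them.

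The array of FGF2 sample 1, 1 of the 4 arrays alike, had the lowest Pgf level of the set, and control 1 had the lowest of the controls. Without FGF2 sample 1 the difference was -0.73 (adjusted p = 0.393), without sample 2 it was -1.01 (adjusted p = 0.066), and without the 4 arrays it was -0.79 (adjusted p = 0.242). The call also ended when control 3, 4, 7, 8 or 13 was left out singly (adjusted p from 0.0535 to 0.0574). The KITLG and LIF arrays of the 4 were at 7.70 and 7.70, inside the control range. The other samples of these groups were higher, at 8.07 and 8.21 with KITLG and 8.19 and 8.63 with LIF. Each of the 4 arrays had the lowest Pgf level of its own group. The 5 oocyte markers summed to 11.09, 13.04 and 12.65 in the FGF2 samples and 11.59 to 12.87 in controls, and the 6 macrophage markers to 10.56, 9.69 and 9.47 against 8.79 to 10.33. The part of these cells in the Pgf result was not tested.

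**Figure D3:**
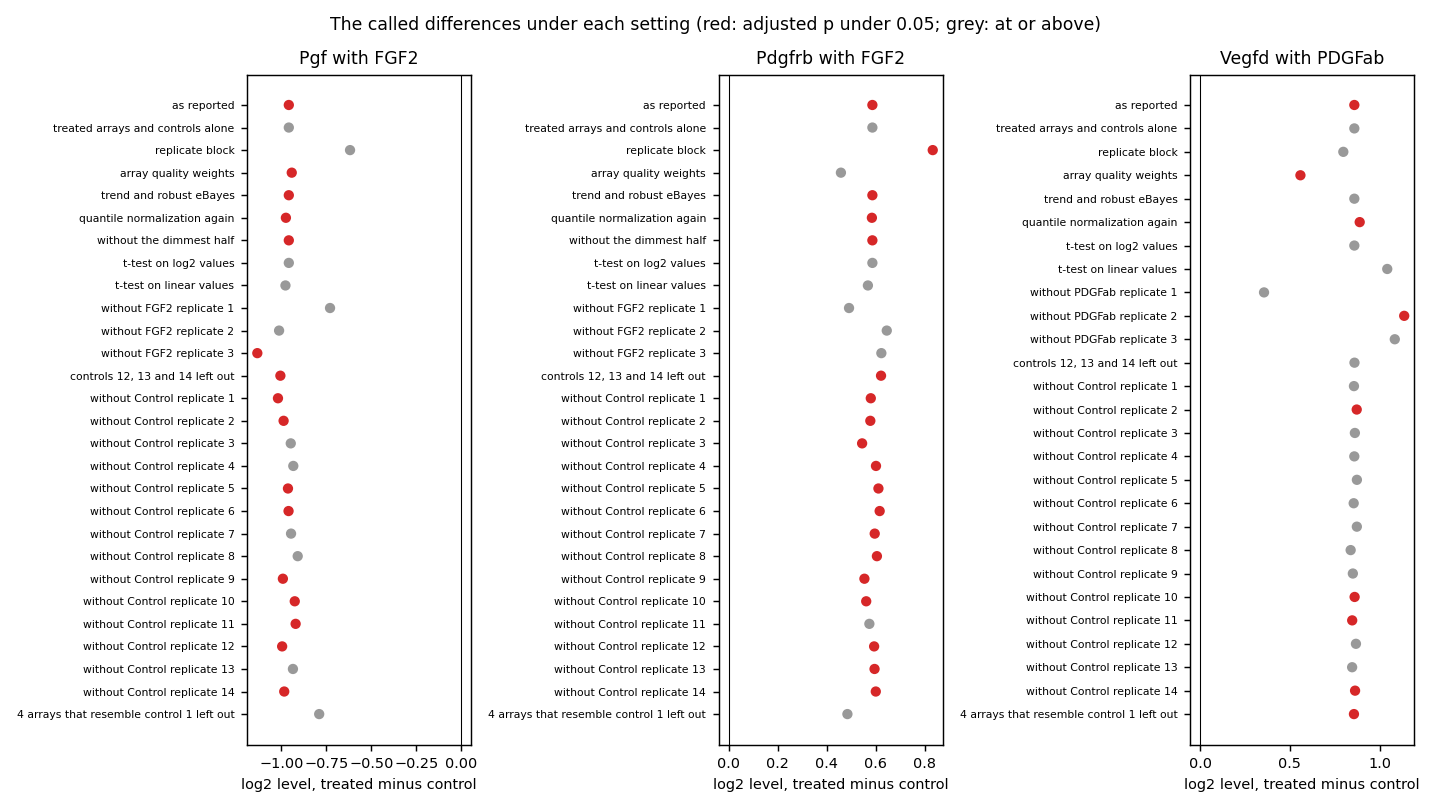
Log2 difference, treated minus control (horizontal axis), of the 3 called results under each setting (vertical axis), in red where the adjusted p was under 0.05. The size of Pgf with FGF2 stayed between -1.13 and -0.62 and that of Pdgfrb with FGF2 between 0.46 and 0.83, while Vegfd with PDGFab dropped to 0.36 without sample 1.

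Vegfd, a ligand of the lymphatic receptor, was higher with PDGFab. The samples were at 6.78, 5.21 and 5.32, all above the highest control (5.10). Samples 2 and 3 still lay below the array medians of the set (5.93 to 6.01), and it is unknown whether they stood above background. The log2 difference was 0.86 (SE 0.20, 95% interval 0.46 to 1.26, adjusted p = 0.049), and 0.973% of all probe sets had 3 PDGFab arrays on 1 side of every control. Sample 1 carried most of the size: without it the difference was 0.36 (adjusted p = 0.681), without sample 3 it was 1.08 (adjusted p = 0.0866), and 10 of the 14 controls ended the call when left out singly (controls 1, 3 to 9, 12 and 13; adjusted p from 0.0508 to 0.0651). Without the 4 arrays alike it was 0.86 (adjusted p = 0.0385). PDGFab sample 1 also had the highest Pdgfra (10.67) and Pdgfrb (10.13) of the 38 arrays. In it the summed level of 8 of 9 stromal markers was 14.28, against 13.41 to 13.93 in controls and 13.95 and 13.90 in the other PDGFab samples. The sum of the pericyte markers was 11.08, against 10.69 and 10.71. The 4 lymphatic markers measured summed to 10.22, 9.86 and 9.96 in the PDGFab samples and 9.67 to 10.10 in controls. In this linear sum Pdpn weighs most, with a control mean of 9.33 beside 6.90 for Lyve1, 6.38 for Reln and 6.29 for Prox1. The part of these cells in the Vegfd result was not tested.

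AMH gave the next highest mean of Vegfd, at 5.41, 4.82 and 5.69 (a difference of 0.40, SE 0.20, adjusted p = 0.984), with 1 sample inside the control range. LIF followed at 5.54, 4.90 and 5.25. Directly compared, PDGFab exceeded the other 7 by 0.46 (minus AMH) to 1.02 (minus KITLG). Of these, 6 had an unadjusted p under 0.05 and none passed the adjustment (lowest adjusted p = 0.102, minus GDNF).

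Vegfa, the central ligand of vessel growth, was high in every PDGFab sample, at 8.70, 8.45 and 8.88, and 2 of the 3 lay above the highest control (8.64). The difference was 0.77 (SE 0.27, 95% interval 0.23 to 1.31, adjusted p = 0.245) and was not called (0.74, adjusted p = 0.198, without the 4 arrays). With FGF2 the samples were spread more widely than the controls, at 7.38, 7.89 and 9.12, which held both a sample below and a sample above every control (a difference of 0.22, adjusted p = 0.816, and 0.57 with adjusted p = 0.614 without the 4 arrays). KITLG samples were at 7.52, 7.19 and 7.89, and the direct difference, PDGFab minus KITLG, was 1.14 (SE 0.34, adjusted p = 0.61) and was not called. The 11 endothelial markers measured summed to 10.10, 9.94 and 9.83 with PDGFab, inside the control range of 9.32 to 10.37.

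Genes that respond to low oxygen stood with Vegfa in the PDGFab samples. Of the 13 on the list, 12 were above the controls in mean and 7 met the study's criteria, which 5.33% of all probe sets met, with a median difference of 0.44 against -0.01 over all probe sets. None passed the adjustment with all arrays. The largest were the hexokinase Hk2 (0.99, SE 0.28, adjusted p = 0.117), the glycolytic kinase Pgk1 (0.85, SE 0.23, adjusted p = 0.0914) and Ndrg1 (0.77, SE 0.18, adjusted p = 0.0538). Without the 4 arrays, Ndrg1 passed (0.80, adjusted p = 0.0223) and Hk2 and Pgk1 did not (adjusted p = 0.0849 and 0.0719). Hif1a, the oxygen-regulated transcription factor itself, differed by -0.08. The summed level of the list was 13.52, 13.41 and 13.81 with PDGFab and 12.92 to 13.57 in controls, so that 1 sample lay above every control. With FGF2 the median was 0.23 and 4 of 13 met the criteria (6.79% of all probe sets). The largest were Hk2 (0.75, adjusted p = 0.233) and Slc2a1, the glucose transporter (0.60, adjusted p = 0.287). The list summed to 12.95, 13.29 and 13.79 in the FGF2 samples, of which 1 lay above every control. Without the 4 arrays Hk2, Slc2a1 and Pgk1 were at 1.05, 0.89 and 0.74 with FGF2 (adjusted p = 0.236, 0.232 and 0.307). With PDGFab they were then at 0.99, 0.63 and 0.80.

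Among the VEGF receptors, Flt1 moved with no growth factor: its differences lay between -0.15 (KITLG) and 0.23 (PDGFab), and all intervals spanned 0. Flt4 was lowest with GDNF, at 6.08, 6.45 and 6.05, of which 1 lay below every control (6.07). That difference was -0.34 (SE 0.15, adjusted p = 0.257), within the study's criteria. Control 1 had the lowest Flt1 (5.07) and the highest Flt4 (7.16) of the 14 controls.

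Within groups, Vegfa and Flt1 rose and dropped together from array to array. Deviations from the group means over the 38 arrays gave r = 0.78 for this pair (0.80 without the 4 arrays alike), the highest of any pair of members and the 19th highest of 14323 genes for Vegfa. The 3 genes most like Vegfa were P4ha1, a collagen prolyl hydroxylase, Pdk1, which limits the entry of pyruvate into mitochondria, and Slc16a3, a lactate transporter (r = 0.89, 0.87 and 0.87). P4ha1 and Pdk1 are on the low-oxygen list, 9 of whose 13 genes were among the 100 most like Vegfa (median r = 0.79, against -0.02 over all genes). The 3 most like Flt1 were Igfbp3, Kcnj2 and the chemokine receptor Cxcr4 (r = 0.88, 0.88 and 0.85). Endothelial markers followed it, with Esam at 0.84 and Sox18 at 0.84 and a median of 0.68 over 11 endothelial markers. Of these 11, 5 were among the 100 genes most like Flt1, and 5 among the 100 most like Vegfa (median r = 0.55 with Vegfa). Low-oxygen genes followed Flt1 too, with a median r of 0.61 and 4 among its 100. So did pericyte and smooth muscle markers, 4 of them among its 100 (Rgs5 at 0.82). Treated arrays of the same number shared part of this pattern. Vegfa lay above its group mean in sample 3 of all 8 growth factors (by 0.20 to 0.99) and below it in sample 2 of all 8, and Flt1, P4ha1 and Esam too were above their means in sample 3 of all 8. Within the 14 controls, r was 0.71 for Vegfa and Flt1, 0.81 for Vegfa and P4ha1 and 0.84 for Flt1 and Esam. Within the 24 treated arrays, with the mean of each number removed, these values were 0.61, 0.84 and 0.81. The correlations are a description of arrays that share numbers, with no test.

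**Figure D4:**
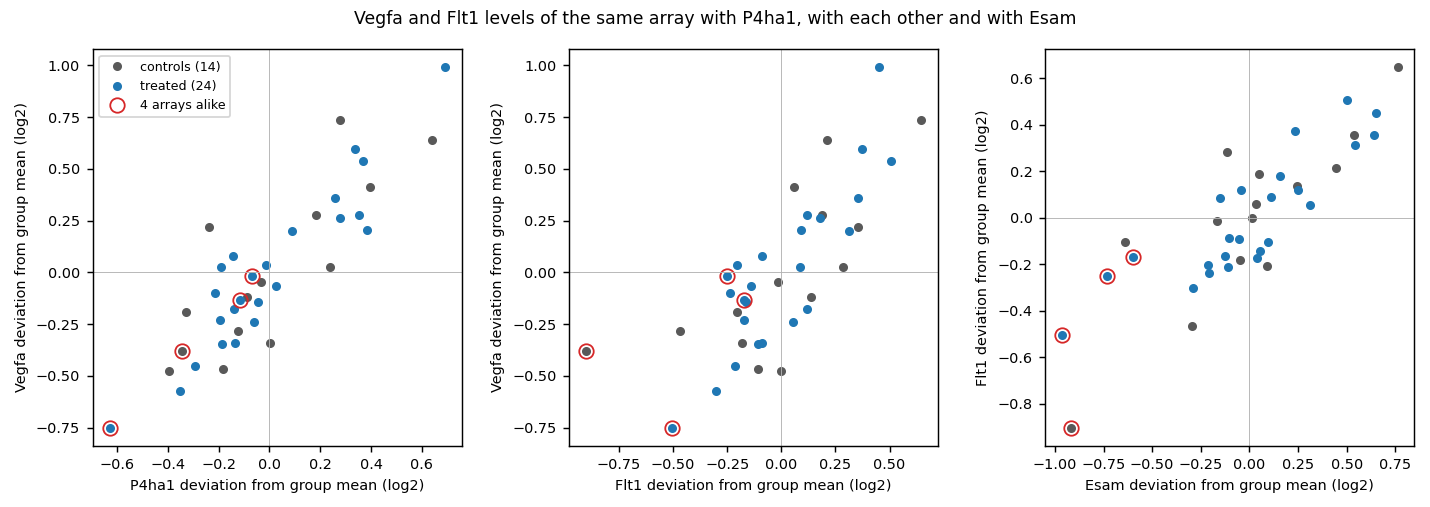
Deviation of each of the 38 arrays from its group mean, in log2 units on both axes, for Vegfa against P4ha1 (left), Vegfa against Flt1 (middle) and Flt1 against Esam (right), with the 4 arrays alike to control 1 circled. The points rise together in each panel (r = 0.89, 0.78 and 0.84).

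The other members had other companions by the same measure. Pdgfra and Pdgfrb moved with each other (r = 0.62) and most with Ceacam1, Zeb2 and Pde10a (0.76, 0.73 and 0.72) and with Rps6ka2, Zeb1 and Adamts12 (0.78, 0.77 and 0.75). Zeb1 and Zeb2 are transcription factors known from mesenchymal cells. Over 11 endothelial, 10 pericyte and smooth muscle and 8 stromal markers, the median r with Pdgfra was 0.40, 0.37 and 0.30 (-0.02 over all genes). With Pdgfrb these medians were 0.38, 0.36 and 0.26 (0.02 over all genes). The 100 genes most like Pdgfra held 4, 2 and 1 markers of these lists, and the 100 most like Pdgfrb held 1 of each. Pdgfb was most like Cuedc1, Bag3 and Lima1 (0.88, 0.87 and 0.87), and without the 4 arrays these values were 0.65, 0.60 and 0.63. Pdgfa was most like Nuak1, Cerk and Sort1 (0.90, 0.87 and 0.86; 0.84, 0.81 and 0.78 without the 4 arrays). Pgf was most like Tmx4, Gabrb2 and Glb1l3 (0.88, 0.88 and 0.83), Vegfd like Shc3, Scara3 and Fut9 (0.66, 0.66 and 0.65), and Flt4 like Rpl37l1, Rpl36a and Irf5 (0.80, 0.74 and 0.74). Without the 4 arrays the values of Pgf were 0.85, 0.85 and 0.80, those of Vegfd 0.68, 0.71 and 0.66, and those of Flt4 0.69, 0.65 and 0.55.

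No member was called by the F-test over the 9 groups of the 38 arrays, which called 2.18% of all probe sets. Pdgfra, Vegfd, Pdgfrb and Pgf had an unadjusted p under 0.05 there (adjusted p = 0.106, 0.139, 0.151 and 0.304). These were 0.212, 0.277, 0.31 and 0.527 without the 4 arrays. Nor was a member called, without the block, in the 13 direct comparisons of FGF2 or PDGFab with another growth factor. For FGF2 minus PDGFab, AMH, BMP4, FGF7, GDNF, KITLG and LIF, 0.00366%, 0.0402%, 0.0549%, 0.0475%, 3.13%, 0.0622% and 0.187% of all probe sets were called. For PDGFab minus AMH, BMP4, FGF7, GDNF, KITLG and LIF these shares were 0%, 0%, 0%, 2.53%, 0% and 0.0695%. Members with an unadjusted p under 0.05 were Pgf (in all 7 contrasts of FGF2), Vegfd (in 6 of 7 of PDGFab), Pdgfra (in 3 of 7 of PDGFab and 1 of 7 of FGF2) and Vegfa (in 2 of 7 of PDGFab). Same-numbered arrays deviated together in 6 of the 13 comparisons, and the block changed the calls of members in the 3 of them given for Pgf. None of the 3 effects called against controls is shown to be limited to its growth factor.

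The rest of the family and its signalling partners gave few calls. Of the other ligands Pdgfc, Pdgfd, Vegfb and Vegfc and the coreceptors Nrp1 and Nrp2, 0 of 6 were called in any of the 9 comparisons with controls. Of this list, only Pdgfd with KITLG met the criteria with limma's p against all 14 controls (4.44% of all probe sets). Its difference was -0.41 (SE 0.16, adjusted p = 0.434). Without the 4 arrays Pdgfd met the criteria with KITLG (-0.35), GDNF (-0.33) and FGF7 (-0.30), and none of these passed the adjustment (adjusted p = 0.883, 0.219 and 0.58). Of 14 measured adaptors and kinases that act below these receptors, the adaptor Nck1 fell with GDNF, by 0.48 on the log2 scale (SE 0.12, adjusted p = 0.0296), and no other was called. Of 13 measured genes of the angiopoietin, Tie and Notch systems of vessels, the apelin receptor Aplnr rose with FGF2, by 0.80 (SE 0.14, adjusted p = 0.00279), and no other was called. Aplnr was at 0.53 (adjusted p = 0.196) and not called without the 4 arrays. The 11 endothelial markers gave 0 calls with FGF2 and with PDGFab, at median differences of 0.09 and 0.09. Among the markers of 8 cell types, Wnt4 of pregranulosa cells with LIF (0.79, SE 0.16, adjusted p = 0.0156) was the only call in the 9 comparisons, and without the 4 arrays it did not pass (0.59, adjusted p = 0.244).

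In the CTGF set, no member was called against the 3 controls of that set (0 of 9, where 0% of all probe sets passed), and 0 of 9 met the study's criteria (0.761% of all probe sets). No member had an unadjusted p under 0.05 in this unpaired fit. Same-numbered arrays of the 2 groups deviated together in this set, and a fit that takes the number as a block is therefore given too. In it Vegfa, at 9.82, 8.38 and 8.44 with CTGF and 9.40, 8.29 and 8.11 in the controls of the same numbers, was 0.28 higher (SE 0.08, adjusted p = 0.40). Pgf, at 9.70, 8.26 and 8.13 against 9.21, 8.22 and 7.63, was 0.34 higher (SE 0.10, adjusted p = 0.40). Both were higher in 3 of 3 pairs, 2 of 9 members met the study's criteria with the block, where 2.00% of all probe sets did, and no probe set of the 27342 passed the adjustment. Pdgfrb was 0.21 higher (SE 0.08, adjusted p = 0.469), by 0.26, 0.36 and 0.01 in the 3 pairs.

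**Figure D5:**
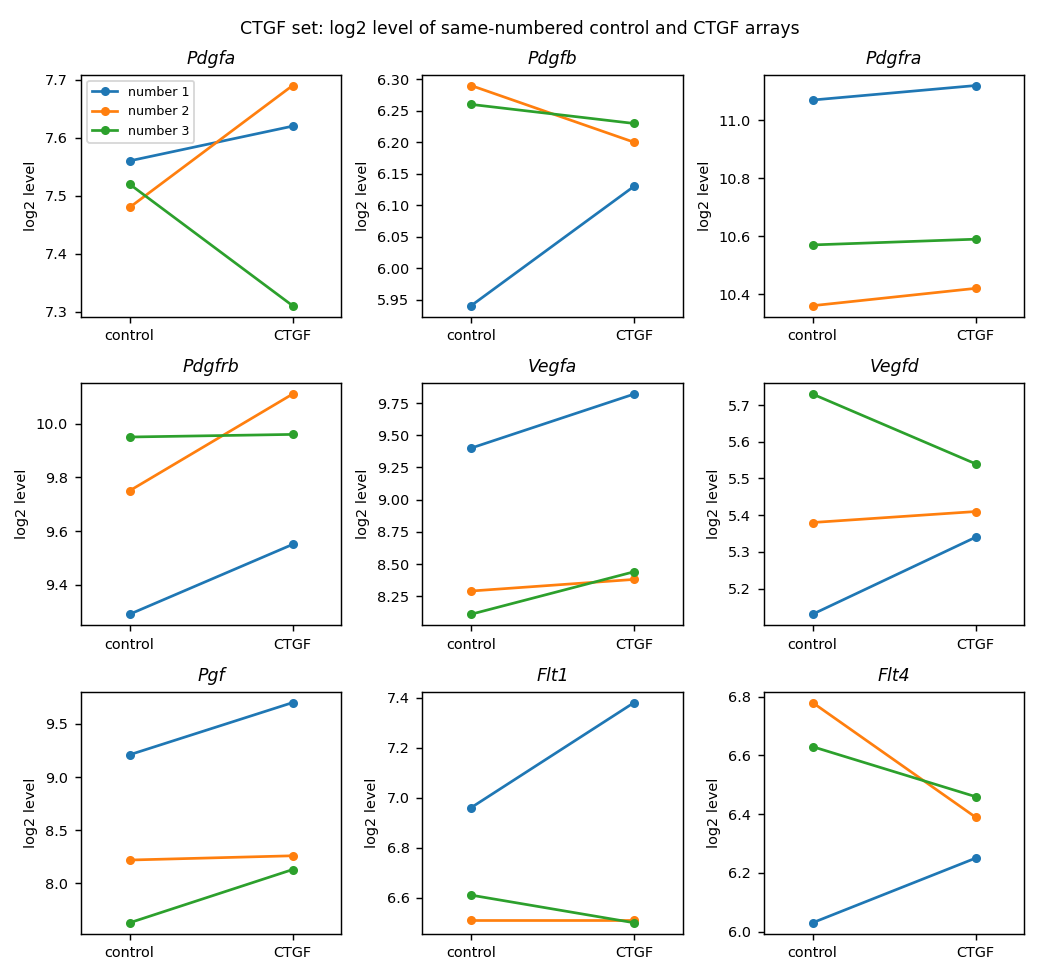
Log2 level (vertical axis) of the 9 measured members in the 3 controls and the 3 CTGF arrays, with arrays of the same number joined by a line. Vegfa, Pgf, Pdgfra and Pdgfrb are higher with CTGF in all 3 pairs, by 0.02 to 0.06 in the case of Pdgfra and by 0.01 in the third pair of Pdgfrb.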

How the data were processed

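RNA of 44 ovary samples was hybridized to Affymetrix arrays by the authors, who read the scans in Partek (RMA, corrected for probe GC content). The deposited values are log2 levels per probe set, processed by the authors separately for the 38-array set and the 6-array CTGF set, and were used as deposited with no array left out. Array medians lay between 5.93 and 6.01 in the larger set and 6.29 and 6.35 in the other. Of the probe sets, 15097 carried a single gene symbol, 323 several and 11922 none. Where a listed gene had several probe sets, the brightest was used.

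Treated arrays were compared with the controls of their set in limma 3.58.1 (lmFit, eBayes; R 4.3.3), with 1 fit over the 9 groups of the larger set. P-values were adjusted over 27342 probe sets. The number of arrays limits the precision. The labels call the samples biological replicates, each a pool of ovaries from a well. The members, the gene lists and the alternatives were chosen with earlier results of these data known. Named were all members, listed genes past the adjusted threshold or needed for a count, markers, and the 3 genes most correlated with each member. Listed levels were summed on the linear scale and given as log2.

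Whether replicate numbers pair samples was checked from deviations from group means. In the CTGF set they do (r = 0.842, 0.623 and 0.647 for the 3 pairs). In the larger set 17 of 24 treated arrays correlated under 0.1 with the control of their number, while in 6 of 13 direct comparisons of growth factors all 3 same-numbered pairs correlated over 0.1 (r from 0.115 to 0.633). The alternatives were a fit of 1 treatment and the controls alone, the replicate block, array quality weights, a variance trend with robust estimation, quantile normalization, leaving out the dimmest 50% of probe sets, the methods' t-test on log2 and linear values, and leaving out arrays. The mean of all probe sets of a gene equals the value used, since each member has 1. The fit was tested on simulated data. Tables were made with Python 3.11.15, pandas 2.3.3 and scipy 1.17.1.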

Additional observations from a re-analysis of the deposited data

How the results depend on the processing

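The 3 called differences kept their direction under all alternatives run: Pgf with FGF2 lay between -1.13 and -0.62, Pdgfrb with FGF2 between 0.46 and 0.83 and Vegfd with PDGFab between 0.36 and 1.14. The Pgf call failed in 12 of 27 alternatives, the Pdgfrb call in 9 of 27 and the Vegfd call in 18 of 26 (adjusted p from 0.016 to 0.393, 0.0226 to 0.353 and 0.016 to 0.681); Vegfd was not tested without the dimmest probe sets. The cause was not tested. For members called with FGF2 (2 as reported), the count was 0 with the treated arrays and controls alone, by the methods' t-test on log2 or linear values and without the 4 arrays alike, 1 with array quality weights, and 0 to 2 with single arrays left out. For PDGFab (1 as reported) it was 0 in the fit alone, by both t-tests, with trend and robust estimation (adjusted p = 0.05), without the dimmest probe sets and without controls 12, 13 and 14, and 0 to 1 with single arrays left out. With FGF7 it was 1 with array quality weights (Pdgfa, -0.45, adjusted p = 0.0174).

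With the replicate block, controls 4 to 14 of the larger set drop out of the comparisons, and the numbers there do not pair treated arrays with controls. With it, 1 member was called with FGF2 (Pdgfrb, 0.83, adjusted p = 0.0226; Pgf was at -0.62, adjusted p = 0.0943), 0 with PDGFab, 1 with GDNF (Flt4, -0.58, adjusted p = 0.0456), 1 by the F-test (Pgf, adjusted p = 0.0115) and 5 in the direct comparisons (Pgf with FGF2 minus AMH, BMP4, GDNF, KITLG and LIF). Of all probe sets, 0.457%, 0.238%, 6.31% and 3.29% were called with FGF2, PDGFab, GDNF and by the F-test, and 0.0914% to 8.1% in those 5 comparisons. In the direct comparisons array quality weights gave 1. Only 3 of 24 treated arrays there correlated best with the control of their own number.

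Members meeting the study's criteria numbered 0 with AMH, 2 with GDNF and 2 with CTGF under the replicate block. With the treated arrays and controls alone they were 0 with BMP4 and GDNF and 1 with FGF7. By the t-test on log2 values they were 0, 0 and 1, and on linear values 0 with each of BMP4, GDNF and FGF7. Array quality weights gave 1 with FGF7. Without the 4 arrays alike the count was 1 with AMH, 0 with BMP4 and 1 with KITLG. With single arrays left out it was 1 to 3 with AMH, 0 to 1 with BMP4, 1 to 2 with FGF7, 0 to 1 with GDNF, 0 to 1 with KITLG, 0 to 1 with LIF, 2 to 4 with PDGFab (2 without sample 1) and 0 to 1 with CTGF. In the unpaired CTGF fit with single arrays left out, Vegfa ran from -0.19 (without CTGF sample 1) to 0.68, and Pgf from -0.16 (without CTGF sample 1) to 0.77, with -0.02 without control 3 of that set. Leaving out single controls and the 4 arrays, and the correlations within controls and with the means of numbers removed, were chosen after seeing the data.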
